A study of Apis mellifera with 6 samples.

Results

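In the hypopharyngeal gland of worker honeybees (Apis mellifera), 45 of 10704 gene models met a rule with 1.5-fold thresholds. It asked for more RNA in bees kept on honey alone than in both pollen-fed groups, with the pollen-fed groups close together. Of the 10704 models, 5018 were of a kind and level that could meet it. Only 12 of the 45 still met the rule when a trend with model length was removed. The study sequenced RNA of 6 libraries, 2 for each of 3 groups, and kept 2 colonies under each treatment. The Brood group had honey with abundant rape pollen and queens free to lay, the Pollen group had the same food and queens caged so that brood dwindled, and the Honey group had honey only and queens caged likewise. Ages conflict in the sources. By the sample labels Brood 1 and 2 were 13 and 14 days old, Pollen 1 and 2 were 9 and 10 days old, and Honey 1 and 2 were 11 and 12 days old, but the series text puts every bee at 9 days. The labelled ages go up by 1 day from sample to sample in the order in which they are listed, from 9 to 14, and may be an entry error. If they hold, age and treatment cannot be told apart. The colony behind each library and the number of pooled glands are unknown here, so the spread within a group may be technical. In bulk tissue, fewer cells of a type and less RNA per cell cannot be told apart.

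The hypopharyngeal gland is a paired head gland that secretes the protein-rich food given to larvae and queens. It enlarges in young nurse bees that eat pollen, the protein source of the colony, and signals from brood are known to keep it active. In bees that stop nursing and turn to foraging the gland shrinks and makes enzymes that act on nectar sugars.

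The 45 models were chosen by their values. Raw fragment counts were divided by a size factor for each library, taken as the median ratio to the geometric mean over 4633 models with 10 or more fragments in all 6 libraries. Models added by the authors, models with 10000 or more fragments in any library and 1 further model named in the rule were left out. Of the rest, 5018 reached a mean of 30 scaled fragments in some group. In 258 of these, 5.14%, the lower Honey library was at least 1.5 times the highest of the other 4 libraries. Among the 258, the Brood and Pollen means were within 1.5-fold of each other in 45. The gap between Honey and the other groups, and the closeness of Brood and Pollen, are therefore the selection itself and not a finding. With the same thresholds, 561 models were high in Brood alone, 55 were high in Pollen alone and 82 were low in Honey alone. The files do not pair their model IDs with gene names. None of the IDs, 0 of 10704, matched the 12398 genes of the RefSeq table for assembly Amel_HAv3.1. No gene function is therefore given, the gland could not be checked against marker genes, and most members are named by their position on the linkage groups, with coordinates as the files give them and a genome build that the files do not state.

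The module was a small part of the gland's RNA. The 45 members held 0.0840% and 0.105% of fragments in the Brood libraries, 0.116% and 0.144% in the Pollen libraries, and 0.571% and 0.576% in the Honey libraries. These shares depend on what the rest of the library holds. The 10 most abundant models took 66.9% and 69.1% of all fragments in the Brood libraries, 53.6% and 49.9% in the Pollen libraries, and 26.8% and 28.0% in the Honey libraries. Their part in the shares was not tested. On the scaled counts, which are set by the median model, the members summed to 4575 ± 532 fragments in Brood, 5070 ± 33.3 in Pollen and 13065 ± 2014 in Honey (SD, n = 2 each). Per length, their FPKM summed to 398 ± 45.7 in Brood, 385 ± 5.60 in Pollen and 994 ± 160 in Honey (SD, n = 2 each). The FPKM also carry the authors' own library factors. Their normalized counts were 1.11 and 1.08 times the scaled counts in Brood, 0.970 and 0.951 times in Pollen, and 0.937 and 0.946 times in Honey. FPKM and scaled counts, here and below, thus differ in library scaling as well as in length, which bears on the order of Brood and Pollen. Library totals ran from 2764870 to 4153354 fragments. A count of 0 is compatible with up to 3 fragments, which is 1.48 to 4.34 scaled fragments depending on the library.

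**Figure D1:**
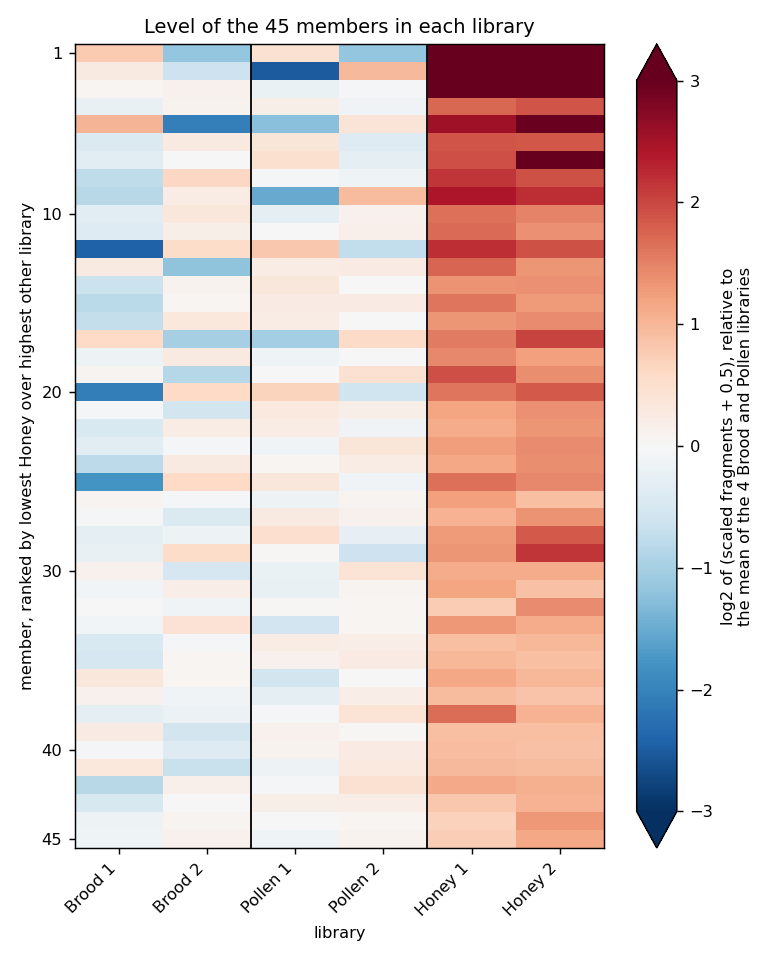
Level of each member (rows, ranked by the lower Honey library over the highest other library) in each of the 6 libraries (columns), as log2 of scaled fragments with 0.5 added, relative to the mean of the Brood and Pollen libraries. Both Honey columns are above the other 4 in all 45 rows, as the rule requires, and the first 3 rows, with ratios from 8.92 to 17.1, stand apart from the rest.

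Most members differed between the groups by a moderate amount. The median member stood in Brood at 0.339 times and in Pollen at 0.416 times its Honey mean. Between the quartiles the ratios ran from 0.274 to 0.444 times in Brood and from 0.293 to 0.490 times in Pollen. The lower Honey library was under 2 times the highest other library in 29 members, and 3 or more times in only 3. The Honey mean was at least 5 times both other means in 5 members.

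Per length, the members covered a wide range in Honey, with a median somewhat above that of all models at the level. They were chosen for being high there. Their Honey means ran from 1.27 to 137 FPKM with a median of 9.57, and the median over all 5018 models at the level was 7.02 FPKM in Honey. There were 6 members at 50 FPKM or more in Honey and 15 under 5 FPKM. The member with the highest level per length lies on linkage group 8 at 7433143 to 7434471, on the minus strand, and is 942 bases long. It had 259 and 343 scaled fragments in Brood 1 and 2, 260.3 and 285 in Pollen 1 and 2, and 781 and 669.8 in Honey 1 and 2. Its level was 65.0 ± 11.5 FPKM in Brood, 51.5 ± 2.43 FPKM in Pollen and 137 ± 12.8 FPKM in Honey (SD, n = 2 each). The Brood and Pollen libraries interleave, and both Honey libraries lie well above them.

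The member with most scaled fragments was gene9316, on linkage group 11 at 13932497 to 13937970 on the minus strand, with a length of 2883 bases. It had 701 and 650.3 scaled fragments in Brood, 715 and 732 in Pollen, and 1182 and 1870.2 in Honey. The other 4 libraries lay within a narrow band, and the Honey libraries differed from each other by 1.58-fold. Its level was 58.3 ± 5.33 FPKM in Brood, 51.5 ± 1.35 FPKM in Pollen and 109.6 ± 34.6 FPKM in Honey (SD, n = 2 each). It overlaps a model on the opposite strand at 13930646 to 13933302, and whether the counting used strand is not stated. That model had 243 and 258 scaled fragments in Brood, 194 and 169.6 in Pollen, and 146 and 207 in Honey, so it did not share the pattern.

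Further abundant members showed the same shape with different spreads. One on an unplaced scaffold at 4311 to 10816 had 478 and 332.5 scaled fragments in Brood, 596 and 555 in Pollen, and 1118 and 1274 in Honey. On linkage group 5, the member at 10536264 to 10538768 had 214 and 280.4 scaled fragments in Brood, 341 and 339 in Pollen, and 548 and 586 in Honey. In both, the Brood libraries were the lowest of the 6. On linkage group 9, the member at 6903242 to 6911756 had 186 and 320.5 scaled fragments in Brood, 225 and 142 in Pollen, and 550.3 and 975 in Honey. On linkage group 14, the member at 6021100 to 6030189 had 238 and 342 scaled fragments in Brood, 169 and 264 in Pollen, and 621 and 552 in Honey. In these 2 the lowest library was a Pollen library. On linkage group 1, the member at 8077449 to 8131255, which spans 53807 bases for a length of 2577, had 156 and 316.5 scaled fragments in Brood, 297 and 254.5 in Pollen, and 638 and 687 in Honey. Its Honey libraries were close, and its Brood libraries were 2.03-fold apart.

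**Figure D2:**
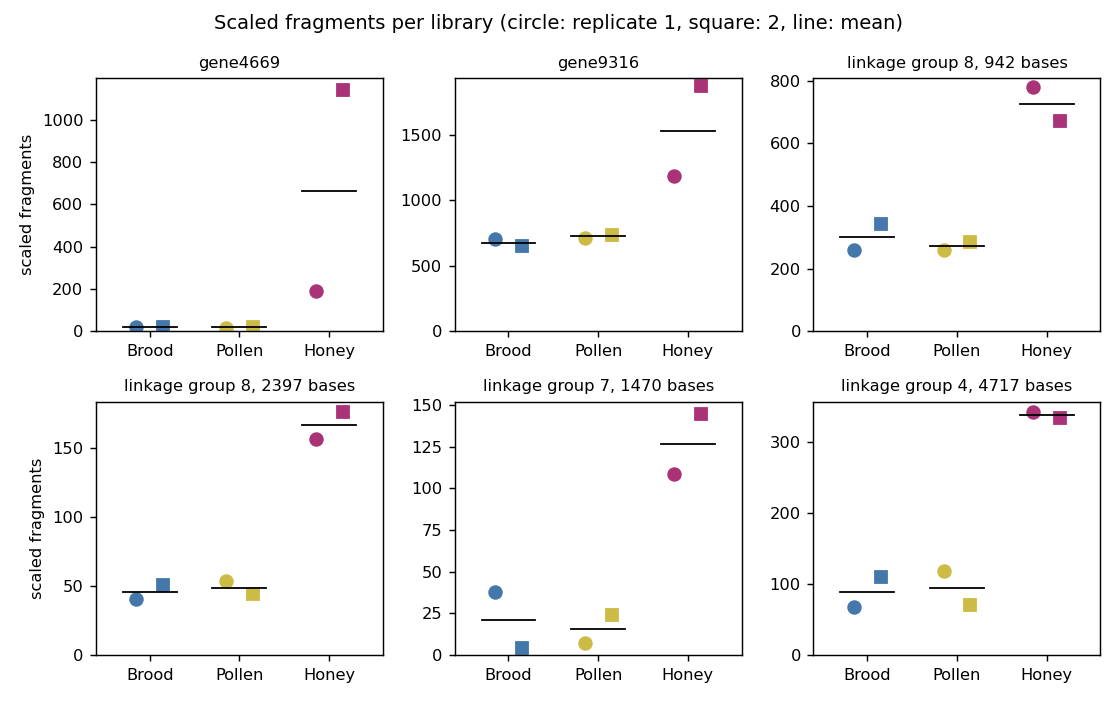
Scaled fragments of 6 members in each library (vertical axes, each starting at 0), with replicate 1 as a circle, replicate 2 as a square and the group mean as a line. For gene4669 Honey 2, at 1140.3, is far above Honey 1, at 191, while in the member of 4717 bases on linkage group 4 the Honey libraries nearly coincide at 342 and 333.

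The member with the largest ratio among those with a Honey mean of 100 or more was gene4669, on linkage group 5 at 13407964 to 13412525 on the minus strand, with a length of 1978 bases. It had 20.2 and 21.4 scaled fragments in Brood, 16.8 and 18.96 in Pollen, and 191 and 1140.3 in Honey. Its Honey libraries were 5.98-fold apart, the widest Honey pair of the 45 members, whereas its other 4 libraries were close. Honey 1 alone was 8.92 times the highest other library. Its Honey level of 65.7 ± 65.4 FPKM (SD, n = 2) therefore rests largely on Honey 2, against 2.35 ± 0.573 FPKM in Brood and 1.76 ± 0.292 FPKM in Pollen. It overlaps a model on the opposite strand at 13405953 to 13420183, which had 4.34 and 2.67 scaled fragments in Brood, 22.04 and 23.0 in Pollen, and 84.6 and 102 in Honey. That model was also higher in Honey, but its Honey libraries did not share the gap between Honey 1 and 2. A larger model on the same strand, at 13402546 to 13531945, encloses gene4669 and was highest in Brood, with 14062 and 10596 scaled fragments there, 3697 and 5852 in Pollen, and 4248 and 4391 in Honey.

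In a pair of short members, RNA was close to the detection floor outside Honey. The member on linkage group 11 at 13246927 to 13248172, 507 bases long, had 1 and 0 raw fragments in Brood, 1 and 0 in Pollen, and 50 and 58 in Honey. By counting error alone, its ratio to Honey was 0.0200 in Brood (95% exact interval 0.000503 to 0.114) and 0.0148 in Pollen (0.000371 to 0.0841). The member on linkage group 7 at 2841510 to 2845824, 942 bases long, had 2 and 1 raw fragments in Brood, 0 and 5 in Pollen, and 126 and 58 in Honey. Its ratio to Honey was 0.0353 in Brood (0.00721 to 0.105) and 0.0434 in Pollen (0.0139 to 0.103). These intervals leave out the spread between colonies. Such low counts were not typical of the module, although 12 members had under 10 fragments in some library.

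Other members combined a large ratio with a Honey mean of 100 or more scaled fragments. On linkage group 8, the member at 904084 to 928511 had 40.5 and 50.7 scaled fragments in Brood, 53.5 and 43.9 in Pollen, and 156 and 177 in Honey. On linkage group 4, that at 1914904 to 2098171, the longest span of the module with 183268 bases, had 67.9 and 109.5 in Brood, 119 and 69.9 in Pollen, and 342 and 333 in Honey. Both had tight Honey pairs, and their Brood and Pollen libraries interleaved. The member at 8265866 to 8288583 on linkage group 9 had 134 and 168 scaled fragments in Brood, 234 and 139 in Pollen, and 647 and 1346 in Honey. That at 2540373 to 2544739 on linkage group 3 had 70.8 and 105 in Brood, 92.4 and 103 in Pollen, and 303 and 239 in Honey. The first of these had a wide Honey pair, at 2.08-fold. The member at 8042604 to 8048668 on linkage group 15 had 80.9 and 149.6 scaled fragments in Brood, 170.0 and 169.6 in Pollen, and 433 and 345 in Honey. That at 3763455 to 3786360 on linkage group 6 had 5.78 and 49.4 in Brood, 58.8 and 19.96 in Pollen, and 157 and 127 in Honey. In the member on linkage group 6, the Brood pair was 8.55-fold apart and the Pollen pair 2.94-fold apart, so its low levels are poorly fixed.

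Among the members not yet described, the steadiness of the libraries varied. The longest model of the module, 7862 bases on linkage group 1 at 15626574 to 15650314, had 509 and 427 scaled fragments in Brood, 383 and 527 in Pollen, and 892 and 836 in Honey. At 11876629 to 11880534 on linkage group 5, a member had 54.9 and 42.7 scaled fragments in Brood, 60.9 and 66.9 in Pollen, and 107 and 105 in Honey. In both, the Honey libraries nearly coincided, the lower one was 1.59 and 1.57 times the highest other library, and the widest pair of the longest model was that in Pollen, at 1.38-fold. Less steady was the member of 6959 bases on linkage group 8 at 13396973 to 13430484, which had 21.7 and 142 scaled fragments in Brood, 148 and 61.9 in Pollen, and 284 and 337 in Honey. Brood 1 stood apart from Brood 2 in the same way at 10417890 to 10435230 on linkage group 5, where a member had 10.1 and 54.7 scaled fragments in Brood, 46.2 and 33.9 in Pollen, and 116 and 99.2 in Honey. On linkage group 9, a member at 6202020 to 6206133 went the other way within Brood, with 34.7 and 12.02 scaled fragments there, 33.6 and 33.9 in Pollen, and 97.0 and 71.9 in Honey. Which Brood library was lower thus differed from member to member.

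The spread within groups differed. Between the 2 libraries of a group, the median member differed by 1.53-fold in Brood, 1.26-fold in Pollen and 1.18-fold in Honey. For all 5018 models at the level the same medians were 1.34-fold, 1.26-fold and 1.24-fold. A gap of over 2-fold within the pair was seen in 12 members in Brood, 5 in Pollen and 3 in Honey. In Brood this was 27.3% of the members with fragments in both libraries, against 13.2% of all models at the level. The 2 sets are not matched for level, since the rule keeps models that are low in Brood, some with few fragments there. The rule also uses the lower Honey library, which favours close Honey pairs. No trait of the members is therefore read from these spreads. Neither Honey library was the higher one throughout, since 22 members were higher in Honey 1 and 23 in Honey 2. In Brood, 16 members were higher in Brood 1 and 29 in Brood 2.

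A stretch of neighbouring models on linkage group 11 shared the pattern. The member at 13246927 with the largest ratio, 17.1, lies in a stretch of 5 consecutive models, from 13243548 to 13263091 (19544 bases). In 4 of them both Honey libraries were at least 1.5 times every other library, and the remaining one has too few fragments to place. The stretch was looked for after the values were seen. The first model, at 13243548 to 13245120 on the minus strand, had 93.9 and 30.7 scaled fragments in Brood, 25.2 and 17.96 in Pollen, and 315 and 728 in Honey. The model at 13248076 to 13256551, on the plus strand, had 13.0 and 18.7 in Brood, 16.8 and 48.9 in Pollen, and 242 and 437 in Honey. Neither is a member, because its Brood and Pollen means differ by more than 1.5-fold, in opposite directions. The model at 13258013 to 13263091 had 36.1 and 25.4 scaled fragments in Brood, 54.6 and 37.9 in Pollen, and 139 and 120.1 in Honey, and missed the same threshold narrowly at 1.504-fold. The model with too few fragments, at 13249052 to 13249822, had 0 in the Brood and Pollen libraries and 1 and 6 raw fragments in Honey 1 and 2. The member overlaps the plus-strand model by a short stretch at its end, so some of their fragments may not be separable. The models that border the stretch did not have Honey on top. Before it, the model at 13242303 to 13243251 had 54.9 and 30.7 scaled fragments in Brood, 15.7 and 13.0 in Pollen, and 14.8 and 18.2 in Honey. After it, the model at 13264835 to 13265806 had 31.8 and 17.4 in Brood, 11.5 and 13.97 in Pollen, and 17.3 and 11.8 in Honey.

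**Figure D3:**
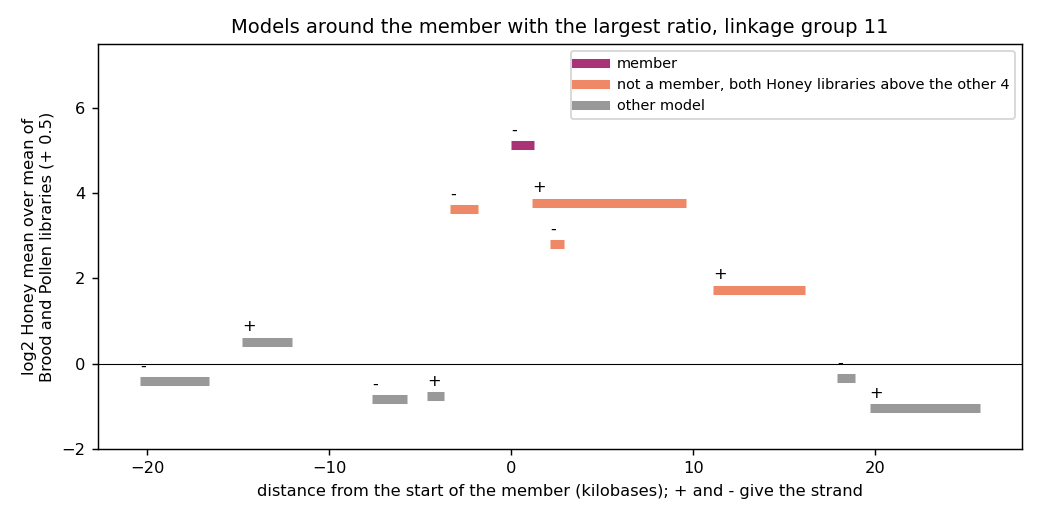
Models within 20000 bases of the member at 13246927 on linkage group 11, each drawn over its extent in kilobases from the start of that member, at the log2 ratio of its Honey mean to the mean of the Brood and Pollen libraries (0.5 added to each). The 5 consecutive models from -3.4 to 16.2 kilobases lie between 1.74 and 5.13, 1 of them, from 2.1 to 2.9 kilobases, on only 1 and 6 fragments in Honey 1 and 2, and models on either side lie between -1.05 and 0.51.

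Elsewhere the members were scattered. They lie on 14 of the linkage groups, with 5 each on groups 1, 5 and 7, none on groups 2 and 13, and 4 on unplaced scaffolds. Linkage group 7 had the highest share, 2.19% of its 228 models at the level, against 45 of 5018 over all groups. It rests on 5 members and is the largest of many shares, so nothing is read from it. No member was the next model to another. The closest pair lies on linkage group 7, at 12450068 to 12454544 and 12475185 to 12482801, with 20641 bases between them. The first had 37.6 and 4.01 scaled fragments in Brood, 7.35 and 23.95 in Pollen, and 109 and 145 in Honey. The second had 8.67 and 18.7 in Brood, 5.25 and 30.9 in Pollen, and 87.1 and 75.5 in Honey. In both, the pairs of Brood and Pollen libraries were wide apart. Of 38 models directly beside a member that were at the level, 4 had Honey on top by 1.5 times, or 10.5%, against 5.14% of all models at the level. Among the 4 were the models at 13243548 and 13248076 in the linkage group 11 stretch, and that at 13405953, which overlaps gene4669. The share is therefore not separate from that stretch, and no general excess beside members is read from it. Of the members, 39 had no model beside them with Honey on top by 1.5 times at any level. The median log2 change of these 38 neighbours was -0.48 in Brood against Honey and -0.25 in Pollen against Honey, and that of all models at the level was -0.19 and -0.08. Of the members, 10 overlapped another model, 8 of them on the opposite strand. The share of all models that overlap another is not given here, so no excess is read from this.

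The members were seldom short. Their median length was 2706 bases, against 2124 for all models at the level, and only 6 members, 13.3%, were under 1500 bases, against 33.3% of all. Their median span on the genome was 6506 bases, against 4508 for all. The 213 models that also had Honey on top by 1.5 times, but with Brood and Pollen not level, were longer still, with a median length of 4276 bases and a median span of 15023 bases. In 208 of those 213 the Brood mean was below the Pollen mean, in 122 of them by 3-fold or more. Over 5 equal classes of length, from short to long, the members numbered 4, 3, 14, 15 and 9, and the 213 models numbered 8, 15, 29, 50 and 111. Length is not independent of the rule, which asks for Honey above Brood. At 500 bases the fitted log2 trend, described below, was 0.95 and 0.62 in Brood and -0.62 and -0.53 in Honey. On strand, 19 members were on the plus and 26 on the minus strand, or 42.2% plus, against 49.5% of all models at the level.

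All 45 members passed the filter on low counts and entered the fit over 6943 models (edgeR's quasi-likelihood test, adjusted p under 0.05, two-sided). The counts below follow from how the members were chosen and are given as a description. In Brood against Honey, 38 members were called lower in Brood, and 28.8% of all models tested were called lower there. In Pollen against Honey, 16 members were called lower in Pollen, and 1.84% of all models were. Both calls were made in 15 members and neither in 6. The median log2 change of the members was -1.31 in Brood against Honey and -1.17 in Pollen against Honey, and that of all models tested was 0.05 and -0.01. The 2 comparisons share the Honey libraries. In Brood against Pollen, 0 members were called by edgeR and 0 by DESeq2, and 0 had an unadjusted p under 0.05 in edgeR, while 48.4% of all models were called in either direction. By the rule the Brood mean ran from 0.672 to 1.38 times the Pollen mean, below it in 31 members and above it in 14 on the scaled counts, and by the TMM-based fit it was below in 26. A missing call does not show that the groups were alike.

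The number of calls changed when 1 library was left out, among the members and among all models. The 16 members called in Pollen against Honey became 6 without Honey 1, 7 without Honey 2, 11 without Pollen 1, 9 without Pollen 2, 25 without Brood 1 and 26 without Brood 2. Over all models, the 128 called lower in Pollen became 60, 46, 62, 90, 175 and 179 in the same order. The members' median log2 change in Pollen against Honey stayed between -1.26 and -1.14 in these fits. The 38 members called in Brood against Honey became 21 without Honey 1, 24 without Honey 2, 37 without Pollen 1, 34 without Pollen 2, 22 without Brood 1 and 32 without Brood 2. Over all models, the 1998 called lower in Brood became 1600, 1580, 2028, 1991, 1614 and 1784 in the same order. There the members' median stayed between -1.45 and -1.14, and in every one of these fits all 45 members were lower than in Honey by sign. In Brood against Pollen, 3 members were called lower in Brood without Brood 2.

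**Figure D4:**
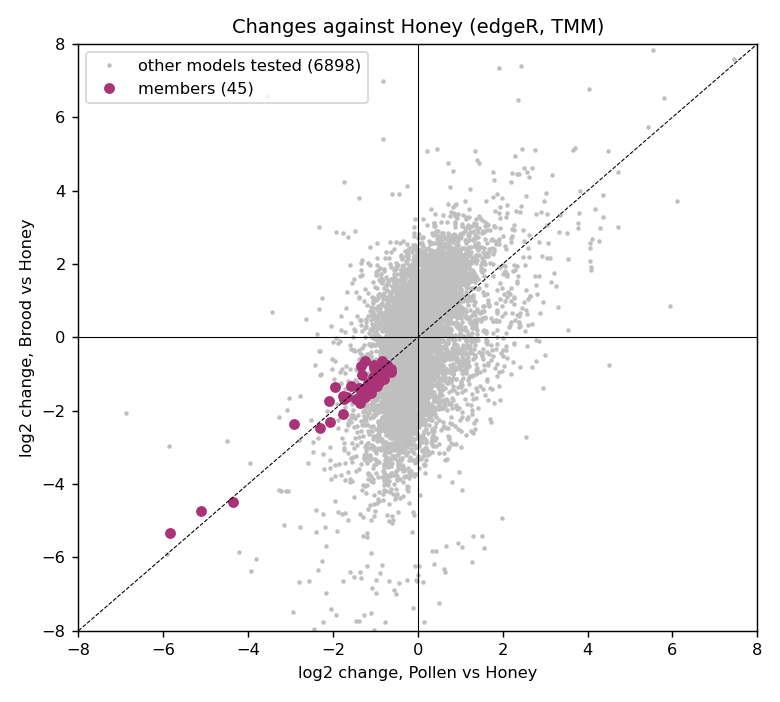
Log2 change of each of 6943 models in Pollen against Honey (horizontal axis) and in Brood against Honey (vertical axis), with the 45 members in colour and the line of equal change dashed; 23 other models lie beyond the axes. The members lie near the dashed line on the negative side, where the rule places them, and 3 of them lie below -4 on both axes.

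The Brood values, relative to the other groups, depend on model length. Across all models, longer models were lower in Brood and shorter ones higher, and the Pollen and Honey libraries leaned the other way. Each trend was fitted relative to the 6 libraries together, so a lean in some libraries brings an opposite lean in the rest. Only differences between libraries can be read from it. At 5000 bases the fitted log2 trend was -1.02 and -0.94 for the Brood libraries, 0.30 and 0.43 for the Pollen libraries, and 0.64 and 0.67 for the Honey libraries. At 500 bases it was 0.95 and 0.62 in Brood, -0.06 and -0.27 in Pollen, and -0.62 and -0.53 in Honey. With this trend removed from each library, all 45 members were still lower in Pollen than in Honey, with a median log2 change of -1.06. In Brood against Honey only 33 were lower, 12 were higher, and the median was -0.68. In Pollen against Honey 13 members were then called lower, against 1.5% of all models. In Brood against Honey 13 members were called lower, against 14.7% of all models, and 2 were called higher, against 24.3%. In Brood against Pollen 8 of the 45 members were called higher in Brood, a share near the 16.9% of all models, so nothing particular to the members is read from it. The cause of the length trend was not tested.

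The rule itself, applied to values without the length trend, kept 12 of the 45 members. Both Honey libraries remained above all others in 31, by 1.5 times or more in 16. Other scalings also exchanged members. With TMM-scaled totals 28 of the 45 were kept, and with the authors' normalized column 33 were kept. Scaling by library totals kept 26 and admitted many others, 384 in all, since the median model at the level then moved to -1.29 in Brood against Honey and -0.87 in Pollen against Honey on the log2 scale. In the fit by totals the members' medians were -2.64 and -2.07, against -1.31 and -1.17 in the main fit. Those of all models tested were -1.30 and -0.90, against 0.05 and -0.01. Members and all models thus moved by similar amounts, and the members kept the gap by which they were chosen. There were 4 members that met the rule under all 4 of these scalings. These were gene4669, the members at 7433143 and 904084 on linkage group 8, and one on an unplaced scaffold at 7203 to 15164. The last of these had 17.3 and 5.34 scaled fragments in Brood, 5.25 and 17.0 in Pollen, and 34.1 and 47.3 in Honey. The most abundant member, gene9316, met the rule under library totals but under none of the other 3. Without the length trend it stood at 1024 and 858 in Brood, 659 and 628 in Pollen, and 922 and 1473 in Honey, so Brood 1 then exceeded Honey 1.

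**Figure D5:**
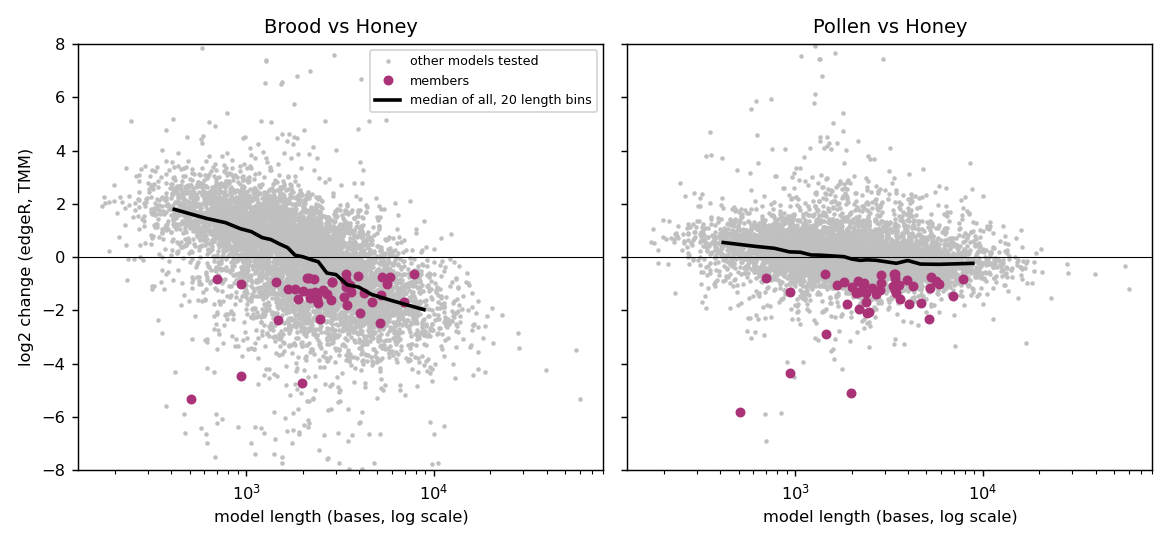
Log2 change against model length in bases (log scale) for Brood against Honey (left) and Pollen against Honey (right), with members in colour, the other models tested in grey and the median of all models in 20 length bins as a line; 22 and 5 models lie beyond the axes. In Brood against Honey 10 members lie on or above the median of their bin, all among the 19 of 3000 bases or more, and in Pollen against Honey all 45 lie below it.

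The thresholds cut through a continuous range. Just inside the ratio of 1.5 was the member on linkage group 10 at 10072700 to 10084265, at 1.52, with 145 and 175 scaled fragments in Brood, 146 and 172 in Pollen, and 265 and 359 in Honey. Just outside was the model on linkage group 10 at 9823587 to 9827773, at 1.496, with 21.7 and 37.4 in Brood, 35.7 and 32.9 in Pollen, and 55.9 and 63.7 in Honey. At the level of 30, the member at 11384557 on linkage group 10 had a Honey mean of 32.8 and the model at 25317439 on linkage group 1 had 29.6. At the Brood to Pollen limit, the member at 18774109 on linkage group 1 stood at 1.487-fold and the model at 14116523 on linkage group 5 at 1.5001-fold. The models on either side of each threshold differ by little in the value that the threshold cuts, though not always in their scaled fragments.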

How the data were processed

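RNA of the hypopharyngeal gland was sequenced in 6 libraries, prepared per the labels' protocols by the NEBNext Ultra kit, with an input of 3 ug of total RNA each. The aligner, counter, annotation and genome build are not given in the sources used here. Per the file headers, each model has a raw fragment count, a normalized count and an FPKM value. From the values, the deposited normalized count is a signal equal to about the raw count times a factor for each library. The deposited FPKM is about that normalized count scaled by model length and by a total nearly equal in all libraries. Some members depart from this. The member at 904084 on linkage group 8 had 51 raw fragments and 4.39 FPKM in Pollen 1, but 44 and 7.25 FPKM in Pollen 2. The raw counts were tested as deposited, after removal of a repeated header line. Groups follow the sample titles.

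Scaled counts, ratios and positions were computed in Python 3.11.15. Models were tested with edgeR 4.0.16 in R 4.3.3 (filterByExpr with a minimum count of 10, TMM, glmQLFit, glmQLFTest, Benjamini-Hochberg), all 6 libraries in 1 fit with 3 group means. DESeq2 1.42.0 was an alternative. The edgeR script was tested on simulated data. The length trend was a lowess curve on log length for each library, of log2 scaled counts relative to the 6 libraries together. Exact permutation over 2 against 2 libraries cannot give a p under 0.333. Each treatment had 2 colonies per the labels, which do not tie a library to a colony. The squared differences between libraries of a group were 10.4 to 19.5 times the sampling variance of their counts, so each was counted as a library of its own. Intervals cover counting error only.

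The members and all rules were chosen with earlier results of these data known. A rule names 2 members by ID, those with the highest Honey mean and with the largest ratio of lowest Honey to highest other library at a Honey mean of 100 or more. The 8 highest in Honey FPKM and the 8 with the largest such ratio are given by position, with those beside each threshold. The other members given by position were chosen after their values were seen.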

Additional observations from a re-analysis of the deposited data

How the results depend on the processing

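The number of members, 45, became 119 with a looser ratio and 16 with a ratio of 2, 28 at a level of 100, 24 with Brood and Pollen held closer and 90 with both within 2-fold, and 384 with library totals. It was 36 with TMM-scaled totals, 44 with the authors' normalized column, 47 without the length trend and 59 at a level of 10. Leaving out single libraries gave 55 to 141 models by the rule, which involves no fit. The largest came without Pollen 2 (141, 34 of the 45 among them), then without Honey 2 (113), Honey 1 (84) and Pollen 1 (75). Stricter thresholds and fewer libraries change the count by construction, and the cause of the other changes was not tested. In the fits that follow, a group left with 1 library takes its spread from the other groups. Models called in Pollen against Honey (428) became 2448 with library totals (136 higher and 2312 lower) and 795 without a filter, and 134 to 549 without single libraries. Members called there (16) became 45 with library totals and 28 without a filter, and 6 to 26 without single libraries. In Brood against Honey, the models called (3969) stayed within 1.5 times, at 3031 to 4029 without single libraries, and the members called (38) became 15 with the length trend removed and 21 to 37 without single libraries. In Brood against Pollen, the models called (3359) became 2038 with the length trend removed and were 2306 to 3146 without single libraries, and the members called (0) became 1 with library totals, 8 with the length trend removed and 0 to 3 without single libraries. With the replicate number as a block, 435, 3901 and 3313 models and 15, 37 and 0 members were called in Pollen against Honey, Brood against Honey and Brood against Pollen. Same-numbered libraries had correlations of their deviations of -0.094, 0.101 and 0.172 in that order, so the numbers were not taken to pair the libraries. For the 15 members given by rule, none of the log2 changes against Honey reversed under library totals, the length trend or a left-out library: 187 values kept their side of the threshold, 38 lost it and 15 gained it. Depth limits the members with under 10 fragments in a library.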

Other observations

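The same values were met by 4 models that the rule leaves out by kind. On linkage group 11, the model at 2569547 to 2572833 was listed at 0 in the Brood and Pollen libraries, with 74052 and 27774 raw fragments in Honey 1 and 2, over the limit of 10000. The other 3 are models added by the authors. The most abundant of them, at 5148397 to 5150438 on linkage group 15 (809 bases), had 454 and 442 scaled fragments in Brood, 499.6 and 673 in Pollen, and 1218 and 1054 in Honey. At 254 FPKM in Honey it exceeded every member per length. The model at 6687451 to 6788823 on linkage group 10 had 23.1 and 16.02 scaled fragments in Brood, 19.9 and 28.9 in Pollen, and 52.0 and 105 in Honey. The model at 7752521 to 7754669 on linkage group 8 had 10.1 and 17.4 scaled fragments in Brood, 22.04 and 13.0 in Pollen, and 37.6 and 60.1 in Honey.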
